A study of Arabidopsis thaliana with 6 samples.

Results

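ZIP proteins are membrane transporters that move zinc, iron, manganese and related divalent metals towards the cytosol, and 10 of their genes in Arabidopsis roots are described here: IRT3, ZIP1 to ZIP5 and ZIP9 to ZIP12. They were chosen by locus, as the members named mainly for zinc and IRT3, and all 10 were measured among 32627 loci. The choice was made with values of the OBP4 against control contrast already known, so the differences of the 10 genes in that contrast are given as a description and carry no test. Plants take up zinc through several of these transporters. When zinc is short, the transcription factors bZIP19 and bZIP23, which sense zinc, switch on a set of genes that includes IRT3, ZIP4, ZIP9 and the nicotianamine synthase genes NAS2 and NAS4. IRT1, a relative, is the main iron importer of the root epidermis.

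The tested roots came from pER8::OBP4 seedlings (3 arrays) and the controls from pER8::GFP seedlings (3 arrays), both moved at an age of 5 days to medium with 10 µM estradiol for 8 h and grown with 16 h of light and 8 h of dark. pER8 is an estradiol-inducible expression vector, so both lines received the inducer, both keep their own OBP4 gene, and they differ in the induced transgene. OBP4 is a zinc finger transcription factor of the DOF family. The study concerns root growth, cell elongation and callus, and the comparison asks which root transcripts differ after OBP4 induction. Per the labels, replicates are biological and were cultured on separate plates. The number of independent transgenic lines is not stated in the labels. Roots without estradiol were not analysed here, so a difference between the lines before induction cannot be told apart from an effect of induced OBP4.

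The values are log2 signals on NimbleGen arrays, summarised from up to 4 probes per gene model, and range from 4.67 to 15.93, close to the ceiling of a 16-bit scanner. A difference of 1 on this scale is a doubling of signal, and differences of very bright genes are compressed. Signals of different genes depend on their probes, so levels are compared only within a gene. Array medians over all loci were 11.60 to 11.63 in OBP4 roots and 11.60 to 11.65 in control roots. OBP4 transcript stood at 15.73, 15.83 and 15.86 in the OBP4 arrays, against 14.37, 14.78 and 14.48 in the control arrays, which is 1.27 ± 0.12 (SE) apart, and limma gave an adjusted p of 0.00279. Every OBP4 array was above every control array. Probe sequences were not used here, so whether this signal holds transgene transcript, endogenous transcript or both is not known.

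The arrays differed in the signal of cell type markers. Photosynthesis genes, which mark green shoot tissue, had a list median of 15.18, 11.08 and 13.16 in OBP4 replicates 1 to 3, against 11.79, 11.67 and 12.94 in control replicates 1 to 3. OBP4 replicate 1 was highest and OBP4 replicate 2 lowest, and 0 of the 17 genes passed limma's adjusted p under 0.05 or an unadjusted p under 0.05. Of all loci 8.48% were lower and 5.23% higher, to be set beside the count of each marker list here. Root hair markers had medians of 14.65 to 14.85 in OBP4 roots and 15.39 to 15.43 in control roots, and 4 of 6 fell. Of 3 root cap markers 2 fell, and the list median was 12.26 to 12.56 in OBP4 roots and 13.40 to 13.53 in control roots. None of 4 endodermis markers passed limma's threshold (list medians of 14.33 to 14.57 in OBP4 roots, 14.24 to 14.38 in control roots). At an unadjusted p under 0.05 by limma were 3 of them, beside 9310 of 32627 loci. These went both ways, with SCR lower (-0.30) and MYB36 (0.57) and ESB1 (0.30) higher. Of 4 stele markers, SKOR, a potassium channel of the stele, fell by 1.32 and the others did not pass (list medians of 14.56 to 14.65 in OBP4 roots, 14.63 to 14.68 in control roots). Each of the 4 root marker lists had a median of at least 12.26 in every array, so defining root markers were not at the bottom of the signal range. In whole roots, fewer cells of a type and less RNA per cell cannot be told apart. The part of these cell type differences in the results below was not tested. Fits with the photosynthesis mean, where given, cover the photosynthesis signal only. They cannot test root hair, root cap, endodermis or stele differences, because no marker of those is in that mean.

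**Figure D1:**
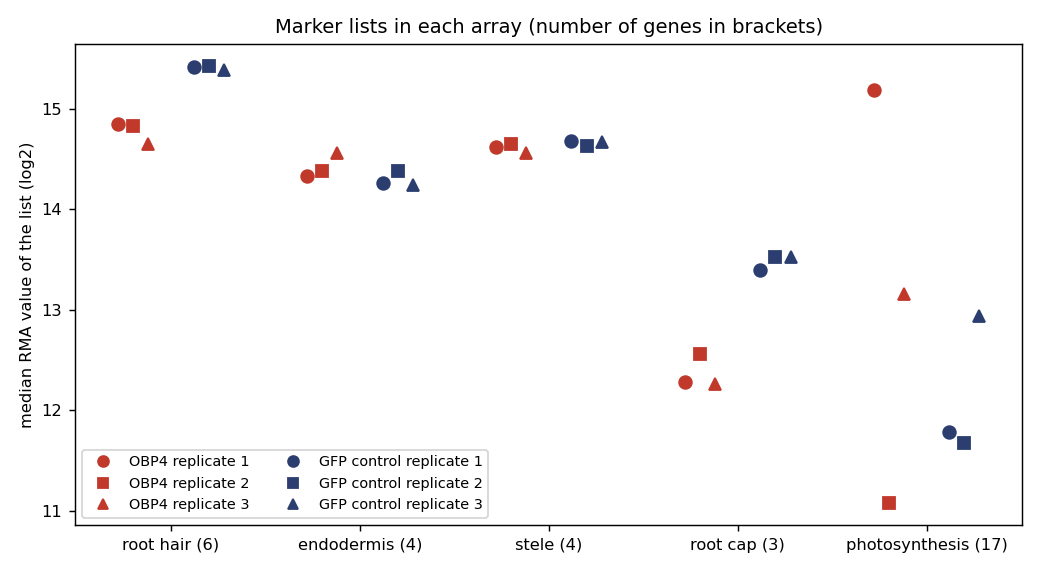
Median log2 signal of 5 marker lists (vertical axis) in each of 3 OBP4 arrays (red) and 3 GFP control arrays (blue), with the number of genes in brackets and a symbol per replicate number. Root hair and root cap medians of the OBP4 arrays lie below all control arrays, while photosynthesis genes run from 11.08 to 15.18 among the OBP4 arrays and overlap the controls.

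IRT3 had far less transcript in OBP4 roots, ZIP9 had moderately less, and ZIP1 and ZIP4 had somewhat more. ZIP2, ZIP3, ZIP5, ZIP10, ZIP11 and ZIP12 did not pass limma's threshold. Of the 10 genes 2 were higher and 2 lower by limma with adjusted p under 0.05, beside 5.23% of all loci higher and 8.48% lower, 13.7% in all. The groups' arrays did not overlap for 2 genes that were higher and 5 that were lower, beside 18.0% and 18.9% of all loci, 36.9% in all. Since these values helped to choose the genes, nothing is read from the counts. The median difference of the 10 was -0.04, with 5 positive and 5 negative, and that of all loci was 0.02. Only IRT3 differed by at least 1 on the log2 scale, which 7.22% of all loci did.

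**Figure D2:**
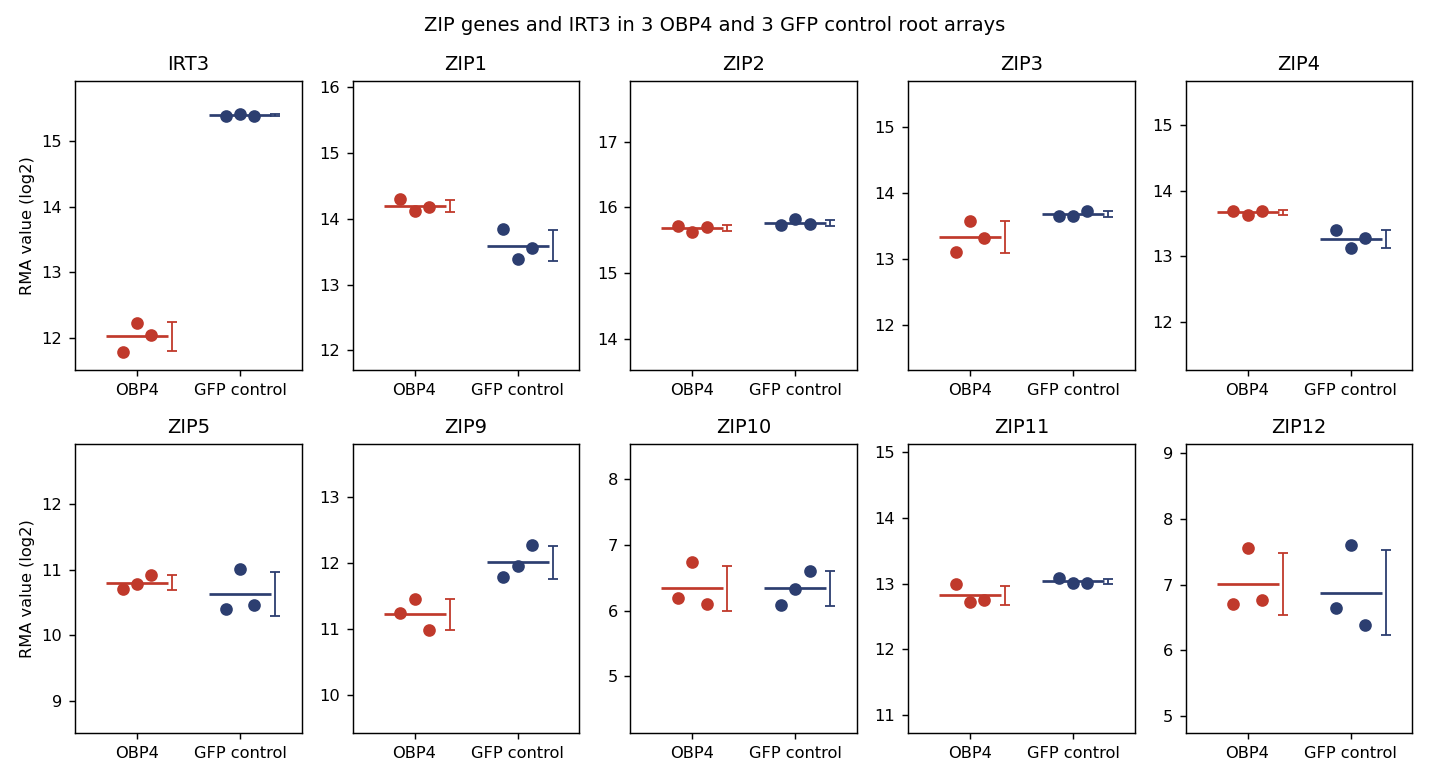
Log2 signal of each of the 10 genes (vertical axis, the same span of log2 units in every panel) in 3 OBP4 arrays (red, left) and 3 GFP control arrays (blue, right). Points are arrays, horizontal lines group means and bars ± 1 SD. IRT3 lies near 12 in OBP4 roots and above 15 in control roots, and no other gene has a gap of that size.

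IRT3, which carries zinc and iron into the cell, was the member with by far the largest difference. Its locus, AT1G60960, lies on the reverse strand of chromosome 1, 22445310 to 22447214 (coordinates here follow the annotation of the array, and no source used here names its build). Its signal was 11.79, 12.23 and 12.05 in OBP4 replicates 1 to 3, against 15.38, 15.41 and 15.38 in control replicates 1 to 3. The lowest control array stood 3.15 above the highest OBP4 array. Group means were 12.03 ± 0.22 in OBP4 roots and 15.39 ± 0.02 in control roots (SD, n = 3 each), a difference of -3.37 ± 0.12 (SE), or 10.3-fold lower. Among 32627 loci, 8 had a more negative difference. The OBP4 mean of 12.03 is far above the lowest signal of the arrays, 4.67. The control values are near the scanner's ceiling, so the difference may be compressed. Leaving out 1 array at a time gave differences of -3.47 to -3.25, and with the photosynthesis mean as a covariate the difference was -3.29.

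ZIP9 was the other member past the threshold in the lower direction. It is a ZIP family gene that acts with ZIP4 in the response to zinc shortage, and its locus AT4G33020 lies on the reverse strand of chromosome 4, 15932603 to 15934267. Its signal was 11.24, 11.45 and 10.98 in OBP4 roots, against 11.79, 11.96 and 12.28 in control roots. The groups did not overlap, with a gap of 0.34 between the nearest arrays. The difference was -0.79 ± 0.18 (SE), and it lay between the 5th and 95th percentiles of all loci, -0.83 and 0.87. Leaving out 1 array at a time, which leaves fewer samples, took ZIP9 out of the count above in each of 6 fits, with differences of -0.90 to -0.65. So did the photosynthesis mean as a covariate (-0.77).

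ZIP1 and ZIP4 were higher in OBP4 roots. ZIP1 (AT3G12750; chromosome 3, 4051651 to 4053201, reverse strand), which carries zinc and manganese when tested in yeast, had signals of 14.30, 14.12 and 14.18 in OBP4 roots, against 13.85, 13.38 and 13.55 in control roots. The difference was 0.61 ± 0.14 (SE), with a gap of 0.27 between the nearest arrays. ZIP4 (AT1G10970; chromosome 1, 3665087 to 3667139, reverse strand), a zinc transporter gene that zinc shortage switches on, had signals of 13.69, 13.62 and 13.69 in OBP4 roots, against 13.40, 13.13 and 13.28 in control roots. The difference was 0.40 ± 0.09 (SE), with a gap of 0.23. For both genes all 3 OBP4 arrays were above all 3 control arrays. Leaving out any array other than control replicate 1 took both genes out of the count above, with differences of 0.50 to 0.73 for ZIP1 and 0.33 to 0.47 for ZIP4 over the 6 fits. So did the photosynthesis mean as a covariate, with 0.57 for ZIP1 and 0.38 for ZIP4. ZIP1 overlaps the end of its neighbour ALIS1 by 125 bases on the opposite strand, and labelled double-stranded cDNA keeps no strand. ALIS1 itself had a mean of 15.17 ± 0.09 in OBP4 roots and 15.21 ± 0.11 in control roots (SD, n = 3 each).

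ZIP5 depended on the gene model. The array holds 2 models of this locus (AT1G05300, chromosome 1, reverse strand), each with 4 probes, and their average was 10.71, 10.79 and 10.92 in OBP4 roots, against 10.41, 11.01 and 10.46 in control roots. The groups overlapped, with a difference of 0.18 ± 0.18 (SE). Model 1 was bright, at 13.91, 13.82 and 13.84 in OBP4 roots against 13.32, 13.58 and 13.48 in control roots, so that its arrays did not overlap and it differed by 0.40. Model 2 was dim, at 7.50, 7.75 and 8.00 in OBP4 roots against 7.49, 8.45 and 7.45 in control roots, and differed by -0.05. With the brighter model in place of the average, ZIP5 passed the threshold beside ZIP1 and ZIP4.

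ZIP3, ZIP11 and ZIP2 had OBP4 arrays below all control arrays but did not pass the threshold. ZIP3 (AT2G32270), a zinc transporter gene, had signals of 13.11, 13.58 and 13.31 in OBP4 roots, against 13.66, 13.65 and 13.73 in control roots. The difference was -0.34 ± 0.13 (SE) and the nearest arrays were 0.06 apart. Its lowest value was in OBP4 replicate 1, the array with the highest photosynthesis markers, and with their mean as a covariate the difference was -0.26. ZIP11 (AT1G55910), a less studied member, had signals of 12.99, 12.72 and 12.75 in OBP4 roots, against 13.08, 13.01 and 13.02 in control roots. Its difference was -0.22 ± 0.09 (SE), with the nearest arrays 0.02 apart. With the photosynthesis mean as a covariate the difference was larger for ZIP11 (-0.26) and ZIP2 (-0.10), unlike that of ZIP3. ZIP2 (AT5G59520), which carries zinc and manganese when tested in yeast, had signals of 15.72, 15.63 and 15.70 in OBP4 roots, against 15.73, 15.82 and 15.75 in control roots, a difference of -0.09 ± 0.06 (SE). Those values are near the scanner's ceiling, where differences are compressed, so a change of ZIP2 could be hidden. Among the brightest 5% of loci 13 of 1633 passed (0.796%), beside 13.7% of all loci.

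ZIP10 and ZIP12 were dim in both groups. ZIP10 (AT1G31260) had signals of 6.20, 6.73 and 6.10 in OBP4 roots, against 6.08, 6.32 and 6.61 in control roots. ZIP12 (AT5G62160) had signals of 6.70, 7.56 and 6.77 in OBP4 roots, against 6.64, 7.61 and 6.39 in control roots. The groups overlapped for both genes, with differences of 0.01 ± 0.22 (SE) for ZIP10 and 0.13 ± 0.40 (SE) for ZIP12. Both are known from other work to be switched on by zinc shortage. In the deposited tables no detection call accompanies a value, so whether either transcript was present cannot be said. Of 9769 loci with a mean over all 6 arrays under 8, 378 passed the threshold (3.87%), beside 13.7% of all loci.

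**Figure D3:**
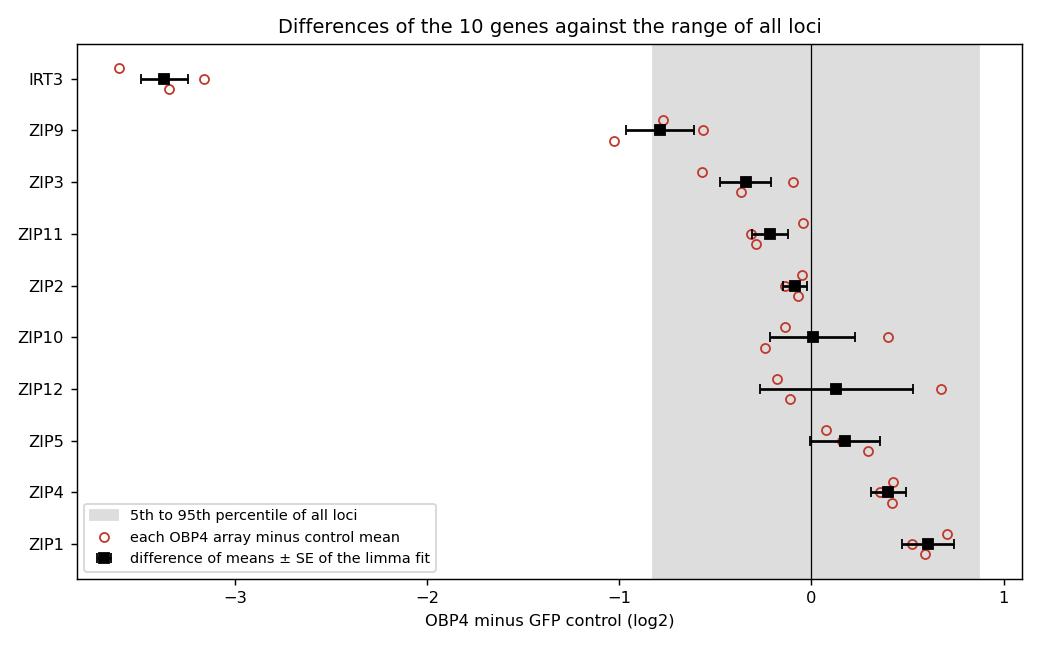
Difference of OBP4 minus GFP control (log2, horizontal axis) for the 10 genes, ordered from the most negative. Squares and bars give the difference of means ± SE of the limma fit, open circles each OBP4 array minus the control mean, and the grey band the 5th to 95th percentile of all loci. IRT3 at -3.37 is the only gene outside the band of -0.83 to 0.87.

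The spread between arrays differed among the 10 genes. The SD within groups, pooled over both, was 0.05 for ZIP2 and 0.57 for ZIP12, and its median over all loci was 0.16. In control roots IRT3 had an SD of 0.02, against 0.22 in OBP4 roots. Where a gene is near the ceiling its spread may be compressed along with its difference, which was not tested here.

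Among 7 other ZIP family genes, IRT1, IRT2 and ZIP8 fell and none rose, beside 8.48% of all loci lower and 5.23% higher. This list and the zinc and metal lists below were also chosen with earlier results of these data known. Their counts and p-values are therefore descriptions. IRT1, the iron importer, had signals of 11.87, 12.38 and 12.29 in OBP4 roots, against 14.16, 14.09 and 14.33 in control roots, a difference of -2.01 ± 0.16 (SE) with adjusted p = 0.0015 by limma. IRT2, an iron transporter of the same epidermal cells, had signals of 10.24, 10.41 and 10.10 in OBP4 roots, against 11.67, 11.55 and 11.26 in control roots, a difference of -1.24 ± 0.14 (SE). ZIP8 had signals of 7.61, 7.76 and 8.53 in OBP4 roots, against 9.80, 9.63 and 9.16 in control roots, a difference of -1.57 ± 0.30 (SE). In these 3 genes no OBP4 array reached the lowest control array. When 1 array at a time was left out, IRT1 and IRT2 passed in each of 6 fits and ZIP8 in 2. Each of the 3 genes is the average of 2 gene models, and with the brighter model alone the differences were -1.39 for IRT1, -0.72 for IRT2 and -1.56 for ZIP8. With its brighter model alone ZIP8 had adjusted p = 0.209 by limma. The average of both ZIP8 models, with the photosynthesis mean as a covariate, had adjusted p = 0.0585 by limma. ZIP6 (-0.26 ± 0.07), IAR1 (-0.13 ± 0.07), ZTP29 (-0.13 ± 0.09) and ZIP7 (0.35 ± 0.20; SE in each) did not pass.

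The zinc-sensing factors did not pass the test. bZIP19 had signals of 15.50, 15.45 and 15.52 in OBP4 roots, against 15.50, 15.48 and 15.40 in control roots, and differed by 0.03 with a 95% interval of -0.13 to 0.18. bZIP23 had signals of 12.37, 12.55 and 12.48 in OBP4 roots, against 12.33, 12.30 and 12.38 in control roots, and differed by 0.13 with an interval of -0.05 to 0.32. The groups overlapped for both. bZIP19 is near the scanner's ceiling, where changes are compressed. Their relative BZIP24 differed by -0.16 ± 0.12 (SE). Transcript levels do not show the activity of these factors, which respond to zinc as proteins.

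Of 17 genes for export and storage of zinc and related metals, 6 fell, 1 rose and 10 did not pass, with a list median of -0.21. Of all loci 8.48% were lower and 5.23% higher. HMA3, a pump that loads zinc and cadmium into the vacuole, had signals of 7.69, 8.00 and 8.04 in OBP4 roots, against 9.47, 9.19 and 10.08 in control roots, a difference of -1.67 ± 0.25 (SE) with adjusted p = 0.0117 by limma. HMA2, which exports zinc towards the xylem, had signals of 11.12, 11.19 and 11.38 in OBP4 roots, against 12.02, 11.91 and 11.96 in control roots, a difference of -0.73 ± 0.09 (SE). HMA4, the other xylem-loading pump, differed by -0.02 ± 0.06 (SE) at a signal near the ceiling. MTPA2, also called MTP3, a vacuolar zinc loader of the root, had signals of 12.81, 12.72 and 13.05 in OBP4 roots, against 13.76, 13.79 and 13.87 in control roots, a difference of -0.94 ± 0.10 (SE). Its relative MTPA1 fell by 0.75 at a dim signal, NRAMP1, a manganese and iron importer, fell by 0.42, and the vacuolar exchanger gene MHX fell by 0.38. NRAMP3, which releases metals from the vacuole, rose by 0.70 ± 0.11 (SE).

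Genes for metal ligands went both ways. Of 15 genes for ligands and their transport, 3 rose, 2 fell and 10 did not pass, beside 5.23% of all loci higher and 8.48% lower. The list median was 0.02. Nicotianamine is a small chelator that carries zinc and iron within the plant. Its synthase gene NAS1 had signals of 13.15, 12.79 and 12.93 in OBP4 roots, against 15.08, 15.23 and 15.34 in control roots, a difference of -2.26 ± 0.12 (SE). NAS4 had signals of 13.24, 13.24 and 13.31 in OBP4 roots, against 11.88, 11.72 and 12.14 in control roots, a difference of 1.35 ± 0.12 (SE) with adjusted p = 0.00223 by limma. NAS2 fell by 0.32 ± 0.06 (SE). The metallothionein gene MT2A rose by 0.80 ± 0.10 (SE), and YSL3, a transporter of metal bound to nicotianamine, rose by 0.49 ± 0.10 (SE).

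Over all 42 zinc and metal genes outside the 10, 4 rose, 11 fell and 27 did not pass, with a median difference of -0.13. Of all loci 5.23% were higher and 8.48% lower, 13.7% in all. The count of lower genes was 7 without OBP4 replicate 2, 6 without control replicate 2 and 7 without control replicate 3. The count of higher genes was 2 without OBP4 replicate 2, OBP4 replicate 3 or control replicate 2. NAS1, NAS4, IRT1, IRT2, HMA2, HMA3, MTPA2 and MT2A each passed in all 6 such fits, NAS2 in 0, MHX and YSL3 in 1, and MTPA1, NRAMP1 and NRAMP3 in 3. With the photosynthesis mean as a covariate NAS2 (adjusted p = 0.0671 by limma) and MTPA1 (0.0527) did not pass, nor did MTPA1 with trend and robust settings of eBayes (0.065). Close relatives such as NAS1 and NAS2, or IRT1 and IRT2, may share probe signal, and probe sequences were not used here.

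**Figure D4:**
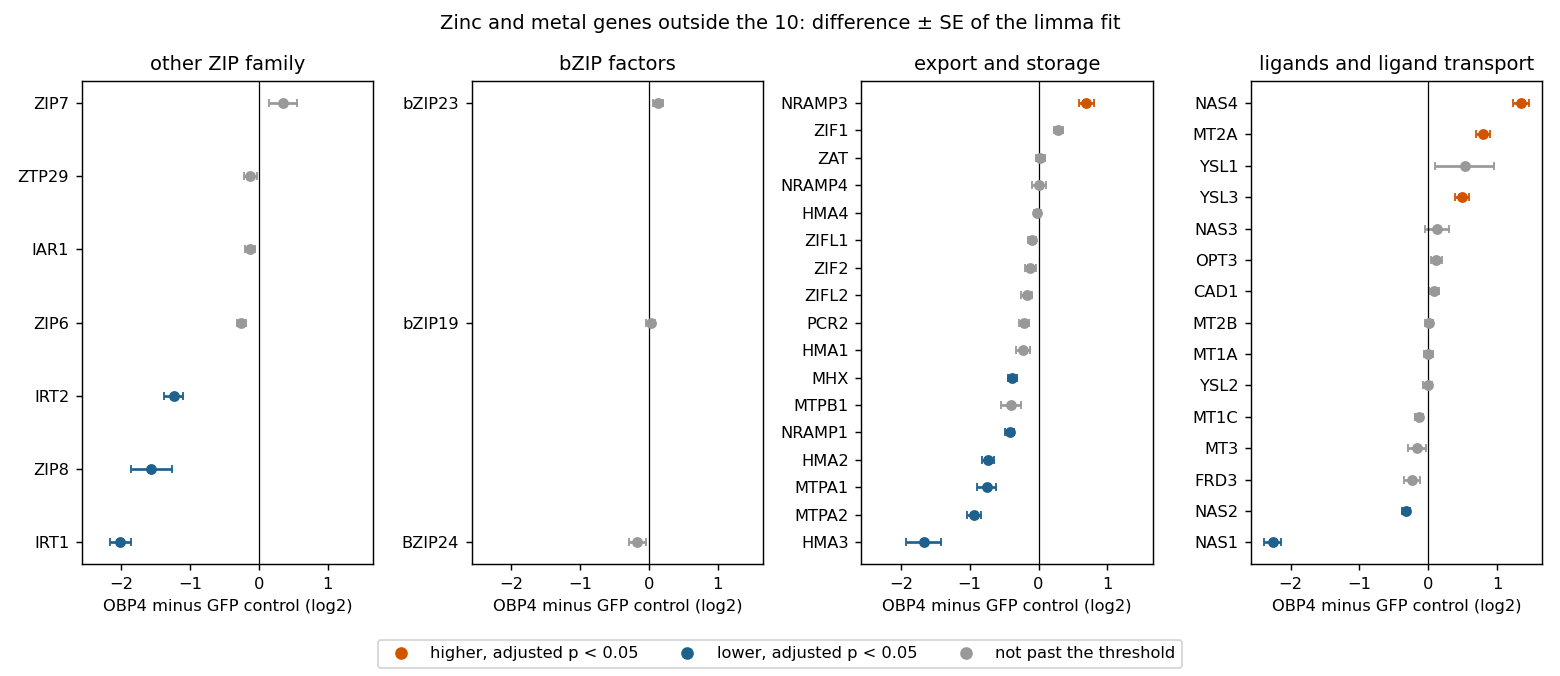
Difference of OBP4 minus GFP control (log2, horizontal axes) ± SE of the limma fit for 42 zinc and metal genes outside the 10, in 4 groups by role. Orange genes were higher and blue genes lower with adjusted p under 0.05, and grey genes did not pass. IRT1 (-2.01) and NAS1 (-2.26) lie furthest to the left and NAS4 (1.35) furthest to the right.

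Among loci with a symbol, those whose values followed those of a member most closely were named. Closeness was the root mean square distance over the 6 arrays, after each gene was centred on its own mean. For IRT3 these were NRT2:1, a high-affinity nitrate transporter gene (distance 0.19 on the log2 scale), FRO2, the ferric chelate reductase gene (0.28), and CER4, a fatty acyl reductase gene (0.29). NRT2:1 averaged 10.49 ± 0.31 in OBP4 roots and 14.13 ± 0.16 in control roots (SD, n = 3 each). For ZIP9 they were UGT74E2 (0.07), CYP71B3 (0.08) and GGT2 (0.08), a glycosyltransferase, a cytochrome P450 and a gamma-glutamyl transferase gene. For ZIP1 they were HAB1 (0.06), a phosphatase gene of abscisic acid signalling, SADHU2-1 (0.07) and SULTR2;1 (0.08), a sulfate transporter gene. HAB1 averaged 15.14 ± 0.05 in OBP4 roots and 14.58 ± 0.18 in control roots (SD, n = 3 each). With 6 arrays in 2 groups, genes with a like difference between the groups are close by construction.

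**Figure D5:**
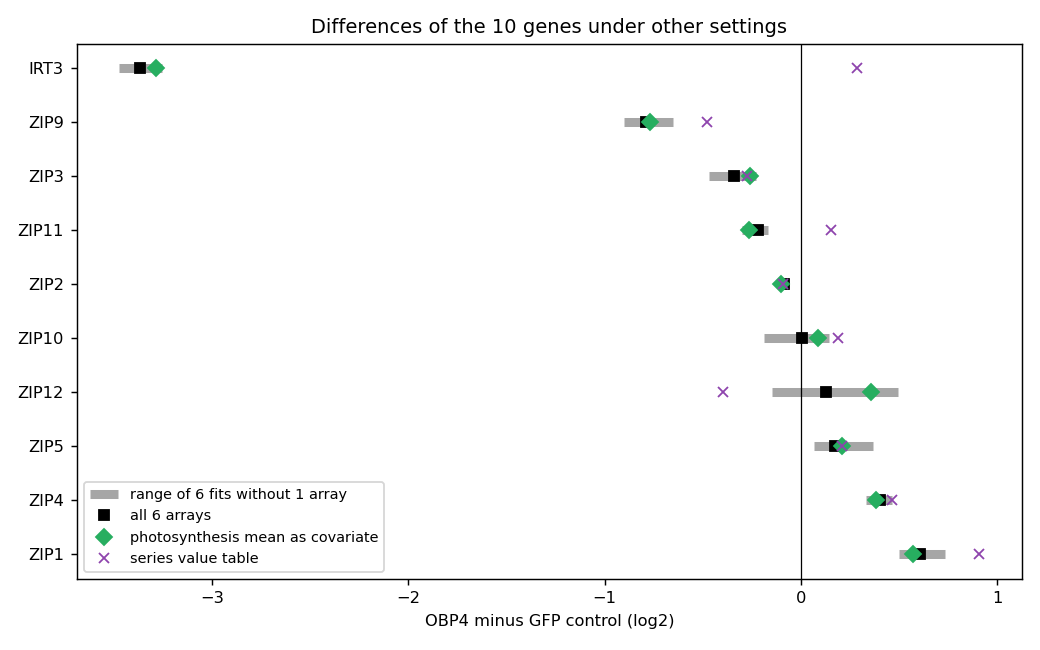
Difference of OBP4 minus GFP control (log2, horizontal axis) for the 10 genes with all 6 arrays (squares), over the 6 fits without 1 array (grey bars), with the photosynthesis mean as a covariate (diamonds) and in the series value table (crosses). IRT3 keeps its size without any array (-3.47 to -3.25) but stands at 0.29 in the series value table, whose columns did not follow the arrays.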

How the data were processed

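Root RNA (10 µg per sample) was measured on 6 arrays, with Cy3-labelled double-stranded cDNA, per the labels' protocols. The authors deposited 1 table per array with log2 values for 37118 gene models, made with RMA (background correction, normalization between arrays and probe summary) per the titles of the deposited tables. No source used here names the software, its settings or the genome build. A deposited series value table, also log2, was used as an alternative. It has no stated normalization. Gene models of a locus were averaged. Symbols were taken from the NCBI table for assembly TAIR10.1 (31993 of 32627 loci matched) and otherwise from the array annotation. The groups were compared by limma 3.58.1 (lmFit, then eBayes; R 4.3.3) without covariates. Tests were two-sided, p-values were adjusted by Benjamini-Hochberg across the whole table of loci, and an adjusted p under 0.05 counted as a call. No filter on dim loci was used. P-values measure the spread between 3 samples per group, and the number of arrays limits the precision. The image identifiers in the file headers share a leading number and give the groups consecutive position codes, so position and group cannot be told apart.

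The 10 genes and all gene lists (42 other zinc and metal genes, and markers of root hair, endodermis, stele, root cap and shoot) were chosen with earlier results of these data known. Named genes are the 10, OBP4, all other ZIP and bZIP genes listed, up to 12 further listed genes past the threshold, and for the 3 members with the largest differences the 3 closest loci with a symbol. Any other gene was named after its values were seen, for a small count or because it lies beside a member. Figures were drawn with matplotlib 3.10.9.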

Additional observations from a re-analysis of the deposited data

Results flagged for a closer look

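In the series value table, on which no comparison above rests, 2 of the 10 genes passed limma's threshold. Its columns did not follow the arrays, so these values are a description and no repeat of the results above. Under its own labels ZIP1 was higher in OBP4 roots by 0.91 ± 0.15 (SE), with means of 13.99 ± 0.29 in OBP4 roots and 13.08 ± 0.02 in control roots (SD, n = 3 each) and limma's adjusted p = 0.0297. ZIP4 was higher by 0.467 ± 0.085 (SE), with means of 12.87 ± 0.08 in OBP4 roots and 12.41 ± 0.09 in control roots (SD, n = 3 each) and limma's adjusted p = 0.0386. All 3 OBP4 columns were above all 3 control columns for ZIP1, ZIP4 and IRT3, as for 3841 of 32627 loci in that table, and limma called 3.17% of all loci higher. There IRT3, which was far lower in the OBP4 arrays, averaged 15.41 ± 0.09 in OBP4 roots and 15.12 ± 0.04 in control roots (SD, n = 3 each), and OBP4 itself 13.96 ± 0.04 in OBP4 roots and 13.95 ± 0.12 in control roots (SD, n = 3 each). Deviations of each locus from its mean correlated between a column and its own array at -0.08 to 0.21 across loci, which are not independent replicates.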

How the results depend on the processing

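Of 154 recomputed differences of the 10 genes, 150 stayed within 1 SD of the value reported, and the other 4 came from the series value table, where IRT3 stood at 0.287, opposite in sign. That table also turned NAS1 (0.023), NAS4 (-0.387), YSL3 (-0.077) and OPT3 (-1.12), put OBP4 at 0.007, and gave 1034 higher and 778 lower loci, 0 lower members, and 1 higher and 2 lower genes outside the 10. The cause was not tested. The counts of members were 0 higher and 1 lower, IRT3, both at adjusted p under 0.01 and with the photosynthesis mean as covariate. Without the dimmest 50% of loci 1 member was lower, IRT3, because that filter removed ZIP9 before the fit. At adjusted p under 0.01, 2 genes outside the 10 were higher and 5 lower. Trend and robust settings gave 2561 higher loci. Replicate numbers did not pair the arrays: deviations from group means correlated at -0.20, 0.09 and -0.17 for the same numbers, and no pairing is in the labels. With the replicate block 588 loci were higher and 1114 lower, 0 members higher and 1 lower, and 1 gene outside the 10 higher and 6 lower. Leaving out 1 array at a time gave 892 to 1309 higher and 1571 to 2048 lower loci, 0 to 2 higher members, 1 lower member in each fit, and 2 to 4 higher and 6 to 9 lower genes outside the 10, with OBP4 at 1.18 to 1.39. These fits have fewer samples. Quantile normalization again, median centring, array weights and leaving out the dimmest 25% of loci changed no member's call. Promoter motifs were not analysed here. Bright genes near the ceiling and dim genes are the least exact.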

Other observations

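The loci next to the 10 genes on the array annotation were looked at after the values above were known. Of 20 flanking loci 1 rose, 2 fell and 17 did not pass limma's threshold, beside 13.7% of all loci that passed, and their median difference was 0.03. Next to IRT3 lie FED A, a ferredoxin gene whose end is 148 bases away, and AT1G60970, a gene annotated as a clathrin adaptor small chain, 633 bases away. FED A averaged 15.43 ± 0.21 in OBP4 roots and 15.16 ± 0.07 in control roots (SD, n = 3 each) and did not pass. AT1G60970 averaged 10.02 ± 0.01 in OBP4 roots and 9.27 ± 0.13 in control roots (SD, n = 3 each), and rose by 0.75 ± 0.08 (SE) with limma's adjusted p = 0.00452, opposite in direction to IRT3. Both neighbours of ZIP2, RTFL5 (-0.84 ± 0.10, SE) and AT5G59530 (-0.66 ± 0.16, SE), fell, with limma's adjusted p of 0.00642 and 0.0494. ZIP2 itself differed by -0.09 at a signal near the scanner's ceiling, where a change could be hidden.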
